A study of Mus musculus with 6 samples.

Results

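BUD31 and the proteins that make up the major spliceosome were followed at the RNA level in mouse testis cells with and without a deletion of Bud31. The members are the 58 genes named by symbol for this purpose: Bud31 itself, the PRP19 complex and the proteins that join or act with it, and the core proteins of the U1, U2, U4/U6 and U5 small nuclear ribonucleoproteins (snRNPs). All 58 were found among the 51912 genes of the count table, and 57 passed the filter on low counts that left 15240 genes for testing. The sorted cells were THY1-positive, c-KIT-negative spermatogonial stem cells from C57BL/6J testes on postnatal day 4, and RNA was amplified by Smart-Seq2. Wild type and Bud31-vKO cells gave 3 libraries each. Bud31-vKO mice carry a deletion of Bud31 made with Cre and loxP. The promoter that drives Cre, the exons removed, whether wild type mice carried loxP sites or Cre, and whether a library came from 1 animal or from a pool are not stated by the labels. The columns are lettered C or T, and these letters were read as wild type and Bud31-vKO. The labels do not spell these letters out, so every direction below rests on that reading. Nothing states that libraries of a group came from separate animals. The p-values then weigh the difference between groups only against the spread of these samples, and that spread may be technical.

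The spliceosome is assembled anew on each intron. U1 snRNP binds the 5′ splice site, U2AF and U2 snRNP, with its SF3a and SF3b parts, bind the 3′ end of the intron and the branch point, and the U4/U6.U5 tri-snRNP then joins. The PRP19 complex and its partners, BUD31 among them, enter when the machinery is activated and stay in the catalytic spliceosome, while helicases of the DEAH family drive its remodelling and its release. A ring of 7 Sm proteins is shared by the U1, U2, U4 and U5 snRNPs.

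Library totals ranged from 13240704 to 18744466 reads. Wild type library 3 and Bud31-vKO library 2 stood apart with reads at 13762 and 12464 genes, against 18171 to 22300 in the other 4 libraries. Germ cell marker RNA was present in every library. Its sum over 15 genes was 3585 to 4122 CPM (library-size-scaled counts, with TMM factors) in wild type and 1991 to 2893 CPM in Bud31-vKO. Dazl alone had 906 to 1824 CPM over the 6 libraries. Nanos2 was read only in wild type library 1, at 0.0729 CPM, and Nanos3 was at 0 in wild type library 3 and Bud31-vKO library 2. The sum of 9 peritubular myoid and stromal markers, such as Col1a1, Col3a1 and Dcn, was larger than that of the germ cell markers in all 6 libraries, at 10328 to 21427 CPM in wild type against 8324 to 14728 CPM in Bud31-vKO. Most of the stromal sum came from the matrix genes Dcn, Col1a1, Col1a2 and Col3a1. Of the other markers in it, Acta2 had 55.1 to 596 CPM, Myh11 0 to 33.1 CPM and Tagln 0 to 1.68 CPM. Sums of CPM over different genes do not measure shares of cells. The levels below are those of libraries that hold RNA of germ cells and of stromal cells. In such bulk samples fewer cells of a type and less RNA per cell cannot be told apart.

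Bud31, the targeted gene, was read in every library. It measured 138, 96.8 and 158 CPM in the wild type libraries, in order of their numbers, against 47.2, 67.6 and 80.4 CPM in the Bud31-vKO libraries. The groups did not overlap, and reads at the gene remained in every Bud31-vKO library. With 1 count per gene, an intact transcript and one without the removed exons cannot be told apart. Whether these reads came from cells without the deletion was not tested. The RNA level of Bud31 per exon length was 81.3 ± 19.3 RPKM in wild type and 40.4 ± 10.4 RPKM in Bud31-vKO (SD, n = 3 each). In wild type this level lay at the 95.9th percentile of 13177 protein-coding genes. The log2 fold change of -1.01 (standard error 0.39) had an unadjusted p of 0.0345 and an adjusted p of 0.9997 in edgeR's quasi-likelihood test. It lay between -1.19 and -0.80 when each library was left out in turn, and was -0.87 without wild type library 3 and Bud31-vKO library 2 together.

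Bud31 was also set against the rest of the machinery and against germ cell RNA. Its share of the RPKM summed over all 58 members was 3.41%, 2.30% and 4.75% in wild type against 1.24%, 1.76% and 1.96% in Bud31-vKO, again without overlap (two-sided exact permutation p = 0.1, the smallest that 3 libraries against 3 allow). The other 57 members summed to 2318 ± 312 RPKM in wild type and 2396 ± 93.3 RPKM in Bud31-vKO (SD, n = 3 each). Set against the germ cell markers, Bud31 was 3.34%, 2.38% and 4.40% of their sum in wild type and 2.37%, 2.34% and 2.85% in Bud31-vKO, so that the ranges overlapped (two-sided exact permutation p = 0.2). The marker sum was lower in every Bud31-vKO library, so this division can only raise Bud31-vKO relative to wild type. The overlap therefore does not show that Bud31 follows the germ cell share. On average the marker sum was 1.53-fold lower in Bud31-vKO and Bud31 was 2.01-fold lower. How much of the difference in Bud31 goes with the germ cell share was not tested. Bud31 lies at chr5:145140362-145148078 on the plus strand of GRCm38, and 244 bases of its exons at the 3′ end are shared with Ptcd1 on the opposite strand. Ptcd1 had 17.7, 40.1 and 0.175 CPM in wild type against 7.09, 4.14 and 16.6 CPM in Bud31-vKO, below Bud31 in each library.

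**Figure D1:**
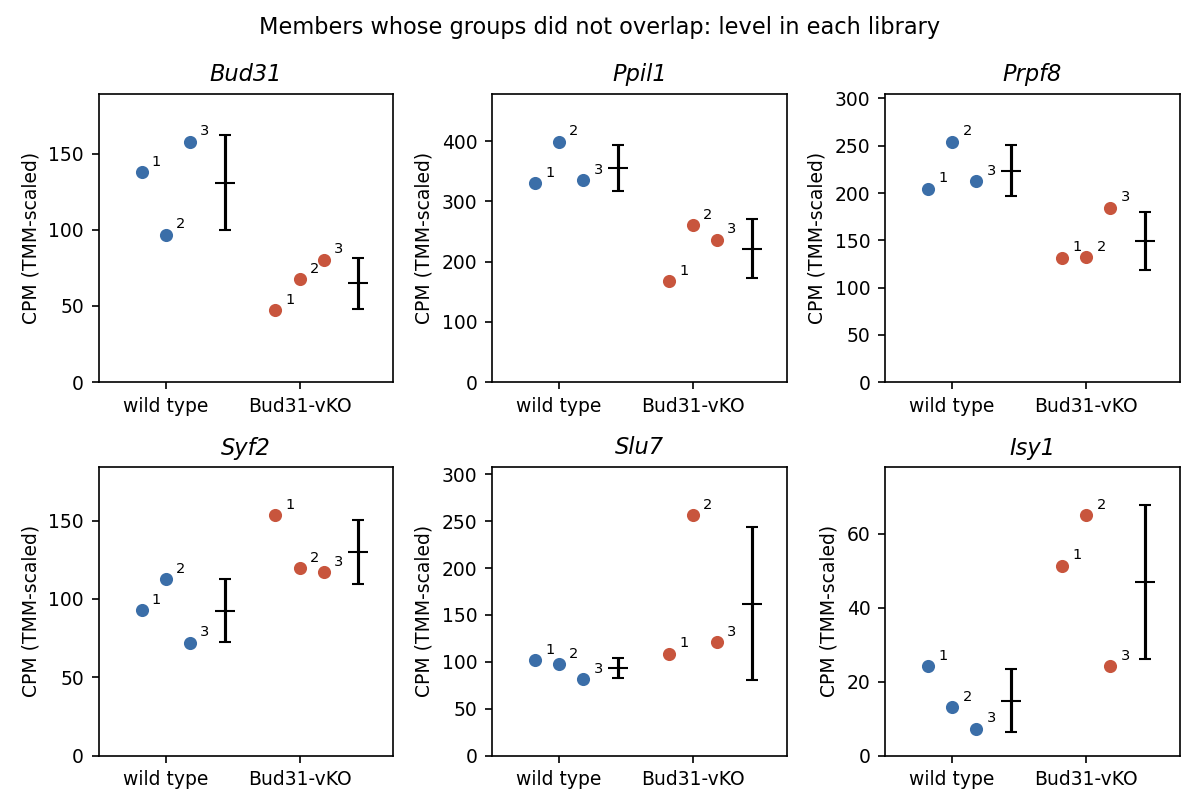
Level in CPM (TMM-scaled) of the 6 members whose groups did not overlap, with 1 point per library (its number beside it) and the mean ± SD of 3 libraries as a bar. Bud31, Ppil1 and Prpf8 were lower in each Bud31-vKO library, and Syf2, Slu7 and Isy1 higher; in Isy1 the groups are parted only by 24.2 against 24.3 CPM.

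No member passed the test over all genes. Of the 57 members tested, 0 were called lower and 0 higher by edgeR, where 0% of all 15240 genes were called, and limma-voom called 0 as well (0% of all genes). DESeq2 called 0 of the 56 members for which it gave an adjusted p, against 0.315% of all genes (0.197% lower and 0.118% higher). At an unadjusted p under 0.05 edgeR had 2 members lower, Bud31 and Ppil1, and 0 higher, beside 1.82% of all genes lower and 1.08% higher (2.91% in either direction). DESeq2 had Bud31 lower and Isy1 higher, beside 2.57% and 2.38% of all genes, and limma-voom had Bud31 and Ppil1 lower and 0 higher, beside 2.97% and 1.99%. The median log2 fold change of the members was 0.05, with 26 below 0 and 31 above 0, and that of all genes tested was 0.02. For 40 of the 57 members the log2 fold change was no larger than its standard error. These standard errors ran from 0.25 to 2.21 with a median of 0.50, on a scale where a 2-fold difference equals 1.

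The groups did not overlap for 6 members, 3 lower and 3 higher in Bud31-vKO. Among all genes tested the same held for 11.2%, with 6.39% lower and 4.76% higher, so the count of members stood near the background. The plot of the 6 genes by library shows all their values.

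PPIL1, a prolyl isomerase that joins the spliceosome with the PRP19-related proteins, and PRPF8, the U5 protein at the heart of the catalytic centre, were the other members lower in each Bud31-vKO library. Ppil1 measured 331, 399 and 335 CPM in wild type against 167, 261 and 237 CPM in Bud31-vKO, a log2 fold change of -0.68 (standard error 0.29; unadjusted p = 0.0485 and adjusted p = 0.9997 by edgeR). Prpf8 measured 205, 254 and 212 CPM in wild type against 132, 132 and 184 CPM in Bud31-vKO, a log2 fold change of -0.58 (standard error 0.30). Their levels were thus 1.60-fold and 1.50-fold lower, beside 1.53-fold for the germ cell marker sum. Relative to that sum both groups overlapped, with Ppil1 at 9.06% ± 0.927 of it in wild type and 8.60% ± 0.354 in Bud31-vKO, and Prpf8 at 5.71% ± 0.667 and 5.90% ± 1.17 (SD, n = 3 each). Ppil1 lies at chr17:29250803-29264186 on the minus strand and shares 188 exonic bases with AC162182.3 on the opposite strand. Prpf8 lies at chr11:75486816-75509449 on the plus strand and has up to 43 exons.

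SYF2, a PRP19 complex partner, SLU7, a factor of the second catalytic step that helps select the 3′ splice site, and ISY1, a protein of the catalytic spliceosome, were higher in each Bud31-vKO library. Syf2 measured 93.1, 113 and 72.1 CPM in wild type against 154, 120 and 117 CPM in Bud31-vKO, a log2 fold change of 0.49 (standard error 0.35). Slu7 measured 102, 97.4 and 81.6 CPM in wild type against 109, 256 and 121 CPM in Bud31-vKO. Its log2 fold change of 0.79 (standard error 0.42) was 0.31 without Bud31-vKO library 2, its highest library. Isy1 measured 24.2, 13.1 and 7.28 CPM in wild type against 51.4, 65.0 and 24.3 CPM in Bud31-vKO. Its log2 fold change of 1.66 (standard error 0.80) was the highest of all members, and was 1.03 without wild type library 3 and Bud31-vKO library 2 together. The gap between its groups closed with upper-quartile scaling and with library size alone, which left 2 members higher without overlap. Its unadjusted p was 0.0736 by edgeR and 0.0258 by DESeq2, and the adjusted p 0.9997 by edgeR. Isy1, at chr6:87814269-87838798 on the minus strand, shares 747 exonic bases with Gm45140 on its own strand. Syf2 lies at chr4:134930898-134937548 and Slu7 at chr11:43433744-43447981, both on the plus strand. Summed markers of other cells are given beside these values. Of the Sertoli cell markers 7 of 8 tested were above 0. Their sums were 409, 127 and 301 CPM in wild type against 1582, 141 and 326 CPM in Bud31-vKO. Only Bud31-vKO library 1 thus lay above the wild type range. Of the lymphocyte markers 7 of 8 were above 0, with sums of 13.1 to 127 CPM in wild type and 135 to 742 CPM in Bud31-vKO. Leydig cell marker sums were 19.7 to 27.6 CPM and 30.1 to 67.6 CPM, over 7 genes of which 3 were tested. Among them Nr5a1 measured 9.55, 10.1 and 19.7 CPM in wild type against 48.7, 25.5 and 18.9 CPM in Bud31-vKO, with overlap. Hsd3b1 had no reads in Bud31-vKO, and Cyp17a1, Lhcgr and Insl3 had none in wild type. Sums of endothelial, macrophage and erythroid markers overlapped between the groups. Of the germ cell markers 12 of 14 tested were below 0, and no marker in these lists was at 0 in all 6 libraries. Relative to the germ cell marker sum the groups of Syf2, Slu7 and Isy1 stayed apart. This was fixed in advance, because that sum was lower and these genes were higher in every Bud31-vKO library. For Ppil1 and Prpf8 too, the same division can only raise Bud31-vKO relative to wild type. Syf2 was 2.35% ± 0.386 of the sum in wild type and 5.34% ± 2.06 in Bud31-vKO, Slu7 2.38% ± 0.0968 and 6.21% ± 2.37, and Isy1 0.371% ± 0.197 and 1.90% ± 0.913 (SD, n = 3 each). The part of these cells in the values of the 6 members was not tested.

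The promoters of the members were compared with those of other genes, since shared sequence was not used to choose them. RefSeq windows on GRCm38.p6, from 250 bases before to 50 after a gene's start, were found for 43 of the 58 members. The ETS core CCGGAAG, read on both strands, was present in 21 of these 43 windows (48.8%), in 17.7% of the windows of 10829 tested genes and in 9.12% of all 27025 windows. The SP1 box GGGCGG was present in 53.5% of the members' windows and 63.5% of those of tested genes. The values were 44.2% and 38.8% for the NF-Y box CCAAT, 20.9% and 13.4% for the NRF1 palindrome, and 14.0% and 7.87% for ATGGCGG, the core of the YY1 motif. The TATA box TATAAA was found in 9.30% and 7.07%, and the E-box CACGTG in 6.98% and 10.1%. A match describes these letters only and is not a site shown to be bound. The tested genes were not matched to the members by level or by GC content. Median GC was 57% in the members' windows and 60.7% in those of tested genes. Where a gene had several windows the first was used, and with all of them the ETS core was in 22 of the 43 members and in 19.3% of tested genes.

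**Figure D2:**
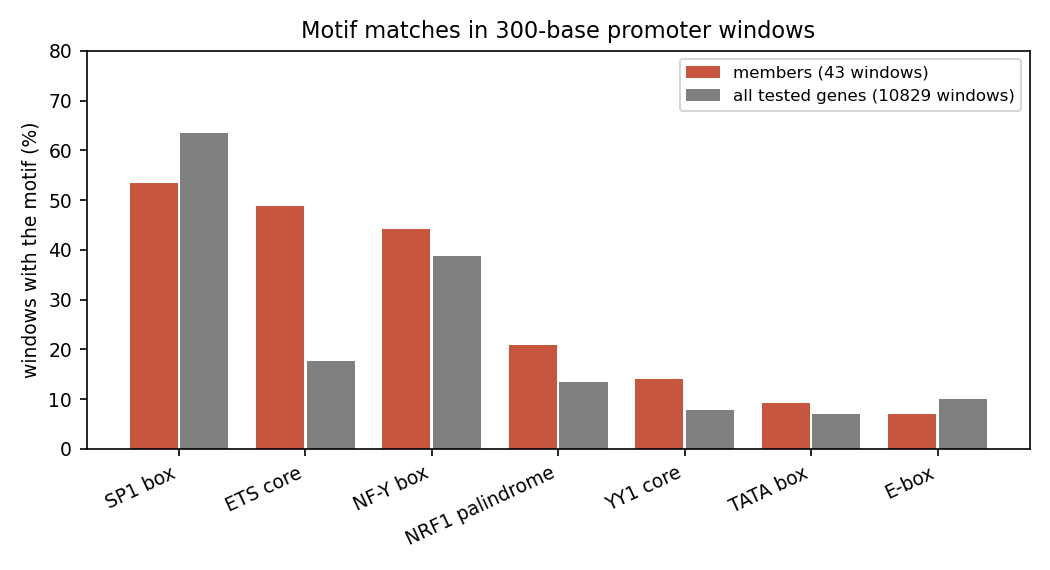
Share of 300-base promoter windows, in percent, that hold each motif on either strand, for the 43 members with a window and for 10829 tested genes. The widest gap is at the ETS core, at 48.8% against 17.7%.

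The share of windows with an ETS core differed between subcomplexes. It was found in 4 of 5 windows of the SYF and intron-binding proteins (Syf2, Xab2, Isy1 and Aqr), in 4 of 5 of the SF3a and U2 core proteins, and in 3 of 4 of SF3b. It was found in 2 of 3 windows of U5, and in 2 of 4 each of the PRP19-related proteins and of the second step and DEAH helicases. The core was in 2 of 5 windows of the Sm ring, in 1 of 3 of U1 and in 1 of 5 of the PRP19 core. It was in 0 of 3 windows of U4/U6, in 0 of 1 of U2AF, and not in that of Bud31. As examples, the stretch before the annotated exons is printed for the members whose groups did not overlap and that left at least 100 bases. It is also printed for the 3 members of highest RPKM in wild type whose stretch holds an ETS core. These 3 were picked for the core, so the printed set does not show how widely it is spread. Capitals mark matches to any of the 7 motifs, and each stretch is written 5′ to 3′ on the strand of its gene. In Syf2 and Isy1 the ETS core lies nearer to the RefSeq start, in whole or in part in bases that GENCODE counts as exon and that are not printed. In Cwc15 and Sf3b6 it reads CTTCCGG, that is, on the opposite strand. The stretches lie at chr5:145140126-145140361 (plus strand) for Bud31, chr11:75486527-75486776 (plus strand) for Prpf8, chr4:134930730-134930897 (plus strand) for Syf2, chr6:87838799-87839009 (minus strand) for Isy1, chr9:14500369-14500616 (plus strand) for Cwc15, chr19:5295458-5295707 (minus strand) for Sf3b2 and chr12:4817358-4817543 (plus strand) for Sf3b6.
Bud31: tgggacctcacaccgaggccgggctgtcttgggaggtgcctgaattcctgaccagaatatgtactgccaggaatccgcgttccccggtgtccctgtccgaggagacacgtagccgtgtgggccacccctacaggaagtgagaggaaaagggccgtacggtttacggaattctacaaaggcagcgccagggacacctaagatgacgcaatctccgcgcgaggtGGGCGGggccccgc
Prpf8: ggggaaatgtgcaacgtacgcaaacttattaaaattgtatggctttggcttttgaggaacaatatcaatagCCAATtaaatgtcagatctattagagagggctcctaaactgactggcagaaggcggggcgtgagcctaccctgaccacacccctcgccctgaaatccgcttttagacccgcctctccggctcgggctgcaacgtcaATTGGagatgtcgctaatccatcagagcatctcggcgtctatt
Syf2: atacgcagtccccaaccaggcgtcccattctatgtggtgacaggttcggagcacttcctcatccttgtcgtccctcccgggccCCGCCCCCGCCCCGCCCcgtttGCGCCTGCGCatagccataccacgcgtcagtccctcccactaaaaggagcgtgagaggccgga
Isy1: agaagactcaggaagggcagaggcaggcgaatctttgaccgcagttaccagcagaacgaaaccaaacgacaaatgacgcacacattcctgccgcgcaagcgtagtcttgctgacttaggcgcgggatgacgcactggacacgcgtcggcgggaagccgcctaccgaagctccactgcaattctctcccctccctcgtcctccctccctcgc
Cwc15: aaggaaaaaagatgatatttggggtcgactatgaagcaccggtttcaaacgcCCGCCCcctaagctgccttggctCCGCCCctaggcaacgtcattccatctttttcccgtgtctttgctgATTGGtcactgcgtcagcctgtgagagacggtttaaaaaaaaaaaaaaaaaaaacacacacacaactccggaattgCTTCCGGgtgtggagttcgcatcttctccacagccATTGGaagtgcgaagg
Sf3b2: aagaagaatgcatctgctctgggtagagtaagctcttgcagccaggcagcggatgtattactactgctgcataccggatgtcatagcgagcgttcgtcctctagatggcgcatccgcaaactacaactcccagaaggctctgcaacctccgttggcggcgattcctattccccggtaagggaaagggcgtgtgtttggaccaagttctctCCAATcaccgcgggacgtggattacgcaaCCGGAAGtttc
Sf3b6: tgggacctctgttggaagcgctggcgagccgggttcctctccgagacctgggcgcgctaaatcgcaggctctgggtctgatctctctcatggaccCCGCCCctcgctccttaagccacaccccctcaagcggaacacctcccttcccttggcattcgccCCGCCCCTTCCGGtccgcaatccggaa

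Levels per exon length differed widely between subunits that are thought to work together. Of the 57 members ranked, 19 lay at or above the 90th percentile of protein-coding genes in wild type, 31 between the 50th and the 90th, and 7 below the 50th. Snrpb, which encodes Sm protein B, had the highest level of all at 365 ± 59.5 RPKM in wild type and 378 ± 16.3 RPKM in Bud31-vKO (SD, n = 3 each). Sf3b4 followed at 160 ± 5.20 RPKM, Phf5a at 146 ± 40.2 RPKM and Ppil1 at 142 ± 15.3 RPKM in wild type. The ranges of these last 3 over the wild type libraries overlapped. At the low end were Prpf19, the ubiquitin ligase that names its complex, at 1.22 ± 0.689 RPKM, Sf3a2 at 2.09 ± 0.764 RPKM and Snrpf at 0.14 ± 0.244 RPKM in wild type. RPKM divides by the union of all annotated exons, a length that rare long transcripts raise; with the longest transcript instead, the median over the members was 33.2 in place of 26.0 RPKM and Bud31 stood at 141 RPKM.

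**Figure D3:**
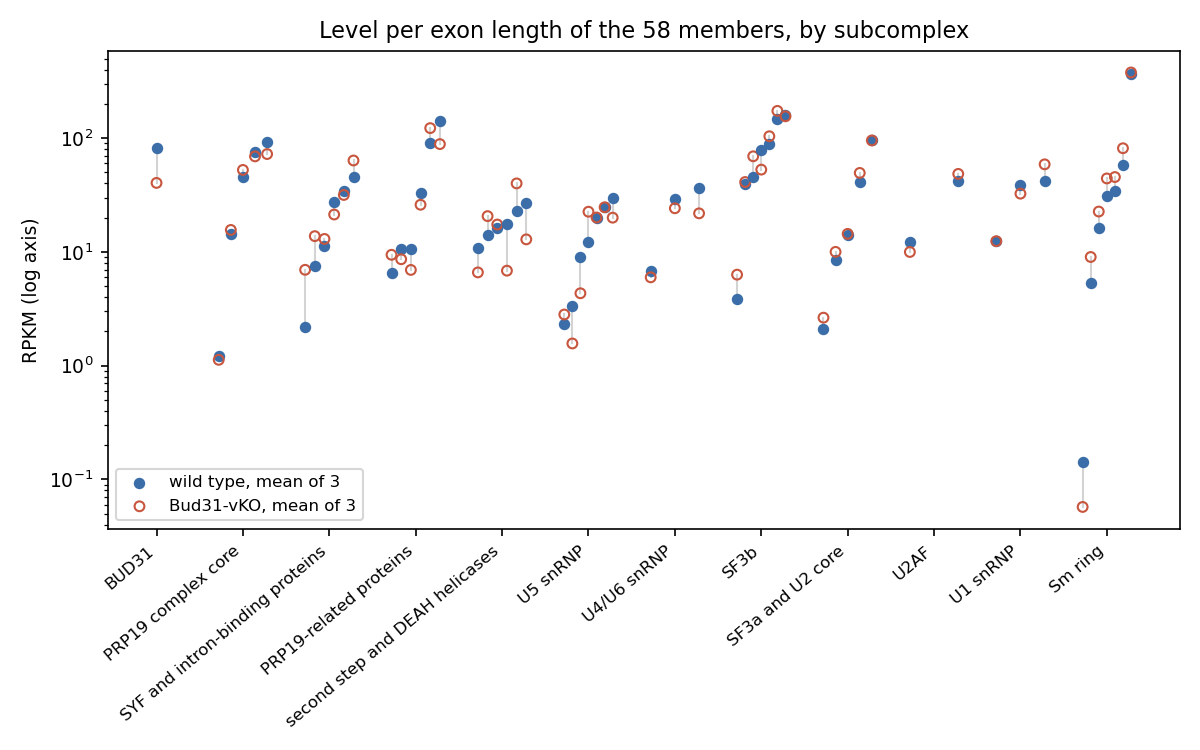
Level per exon length (RPKM, log axis) of the 58 members by subcomplex, with filled points for the mean of 3 wild type libraries and open points for the mean of 3 Bud31-vKO libraries, joined by a line for each gene. Snrpb in the Sm ring stands highest at 365 RPKM in wild type, and Snrpf lowest at 0.14 RPKM.

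No gene of the PRP19 complex core passed the test. Its 5 members, all tested, had a median log2 fold change of -0.11, with 3 below 0 and none called, and the median turned to 0.09 without Bud31-vKO library 1. CDC5L, a Myb-related scaffold of the complex, measured 303, 382 and 228 CPM in wild type against 214, 180 and 324 CPM in Bud31-vKO, a log2 fold change of -0.35 (standard error 0.35). Bcas2, which encodes a small structural subunit, measured 385, 339 and 282 CPM in wild type against 362, 300 and 249 CPM in Bud31-vKO. Both genes overlapped between the groups. Prpf19 was read at 4.36 to 14.3 CPM over the 6 libraries, and Plrg1 and Ctnnbl1 had log2 fold changes of 0.12 and 0.20.

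Among the proteins that bind next to BUD31 the members went in both directions. The 6 SYF and intron-binding proteins (Crnkl1, Syf2, Xab2, Isy1, Aqr and Ppie) had a median log2 fold change of 0.35, with 4 above 0. Their summed level was 118, 141 and 125 RPKM in wild type and 152, 159 and 140 RPKM in Bud31-vKO, so that the lowest Bud31-vKO library lay just under the highest wild type library. The intron-binding helicase Aqr had a log2 fold change of 0.22 and its partner Xab2 one of -0.37. The 6 PRP19-related proteins had a median of -0.31, with 4 below 0, and a median of -0.07 without wild type library 3. Beside Ppil1, Cwc15 measured 180, 161 and 90.2 CPM in wild type against 225, 185 and 169 CPM in Bud31-vKO, a log2 fold change of 0.42 (standard error 0.36). Cwc22, which brings in the exon junction complex, had -0.61, and Snw1 -0.33. The summed level of these 6 genes was 294 ± 42.9 RPKM in wild type and 262 ± 5.38 RPKM in Bud31-vKO (SD, n = 3 each).

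Helicases of the DEAH family differed widely between libraries of 1 genotype, and none passed the test. Dhx16, which acts just before the first catalytic step, measured 28.6, 105 and 82.2 CPM in wild type against 18.4, 51.9 and 13.8 CPM in Bud31-vKO, and its log2 fold change of -1.36 (standard error 0.75) was the lowest of all members. It was -2.15 without Bud31-vKO library 2. Dhx8, which releases the spliced mRNA, measured 79.0, 143 and 185 CPM in wild type against 56.1, 13.1 and 125 CPM in Bud31-vKO, a log2 fold change of -1.06 (standard error 0.75). It was -0.28 without wild type library 3 and Bud31-vKO library 2 together. Dhx38, the second-step helicase, had -0.72 and Dhx15, which takes the spliceosome apart, 0.09. These helicases were listed with 2 second-step factors that are not DEAH helicases, Slu7 at 0.79 and Cdc40 at 0.54. Of the 6 genes in this joint list 3 lay below 0 and 3 above, with a median of -0.32. Leaving out wild type library 2 gave -0.06, Bud31-vKO library 1 gave -0.13 and wild type library 1 gave -0.51.

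**Figure D4:**
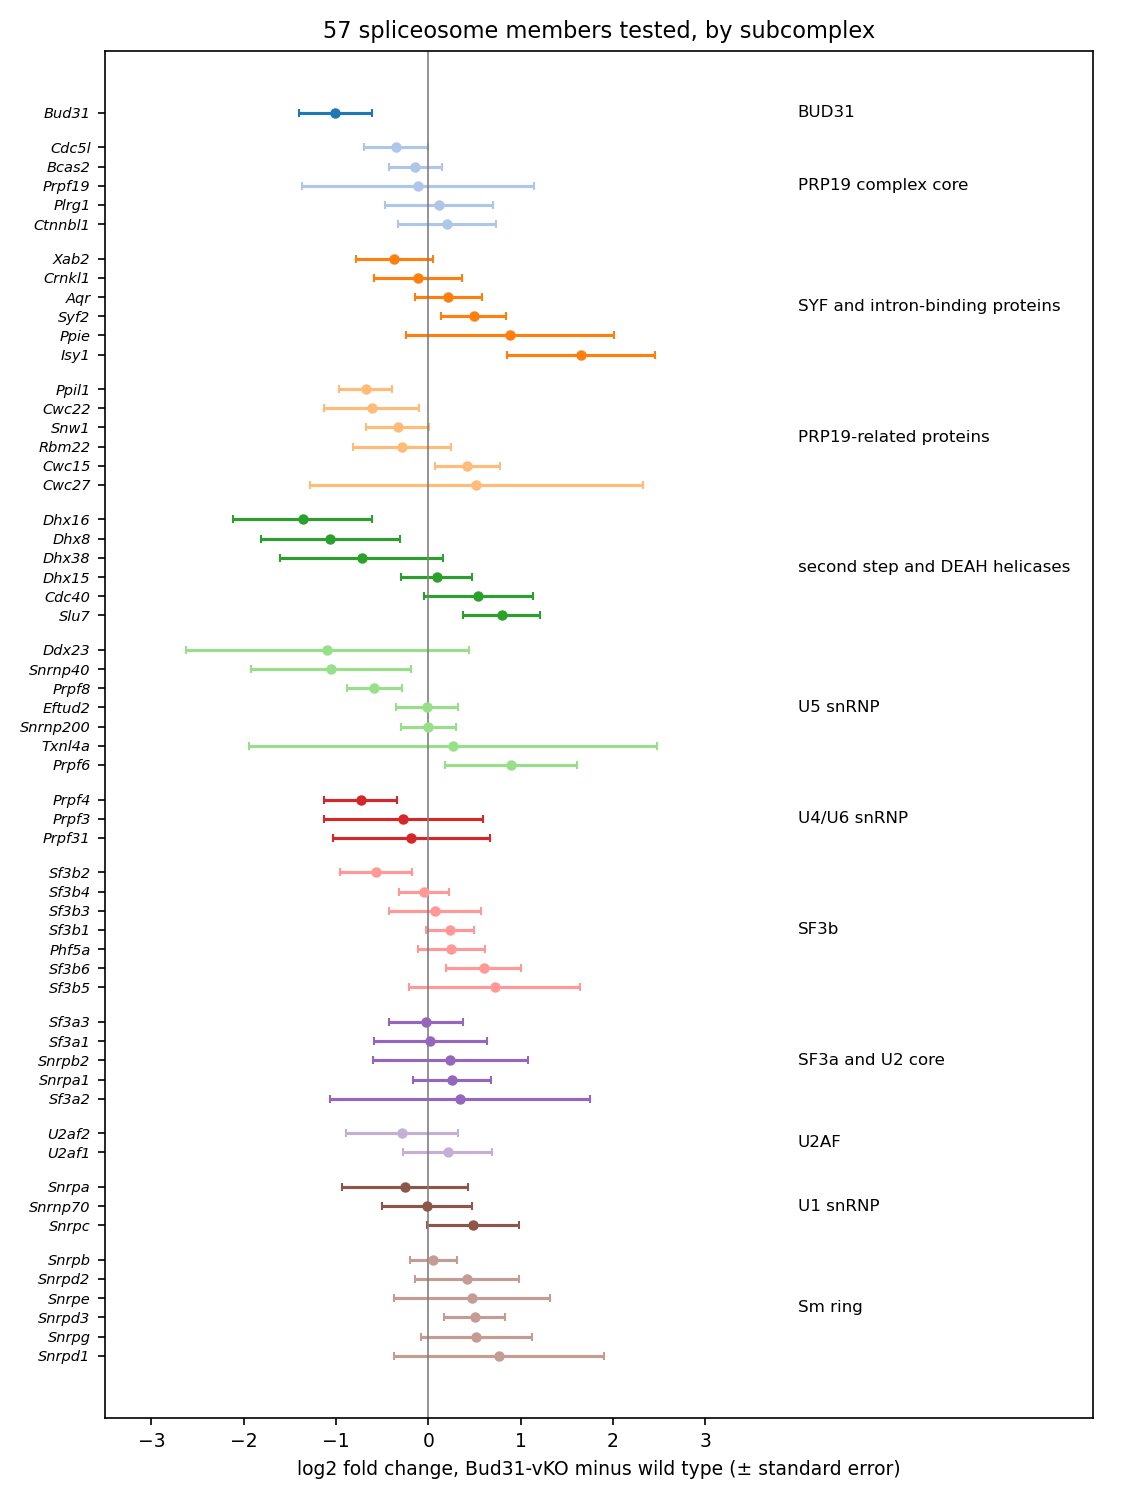
Log2 fold change (Bud31-vKO minus wild type) of the 57 members tested, as points with the standard error as bars, sorted within each subcomplex. Values run from -1.36 in Dhx16 to 1.66 in Isy1, and the bars of 40 members reach 0.

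In the tri-snRNP no gene passed the test. Of the 7 U5 proteins 4 were below 0 and 3 above, with a median of -0.02, or -0.77 without Bud31-vKO library 3. The helicase Snrnp200 had a log2 fold change of 0.00 (standard error 0.29), with 144, 150 and 177 CPM in wild type against 138, 157 and 176 CPM in Bud31-vKO, and the GTPase Eftud2 had a log2 fold change of -0.02 with a standard error of 0.33. Prpf6, which bridges U5 to U4/U6, measured 38.6, 60.6 and 41.4 CPM in wild type against 24.9, 177 and 59.4 CPM in Bud31-vKO. Its log2 fold change of 0.89 turned to -0.14 without Bud31-vKO library 2. Ddx23 and Txnl4a were counted unevenly, with 15 to 819 and 0 to 379 reads over the libraries. All 3 U4/U6 proteins were below 0, with a median of -0.27 that turned to 0.13 without Bud31-vKO library 1. Prpf4 measured 122, 236 and 260 CPM in wild type against 105, 166 and 101 CPM in Bud31-vKO, a log2 fold change of -0.73 (standard error 0.40), and Prpf3 measured 82.5, 148 and 266 CPM against 15.6, 250 and 145 CPM. The log2 fold change of Prpf3, -0.27, became 0.28 without wild type library 3 or without Bud31-vKO library 1.

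SF3b, the part of U2 snRNP that holds the branch point, had the highest mean summed level of the subcomplexes in both groups. The lists hold 1 to 7 genes, and a sum grows with the number of genes in it. The Sm ring overlapped with SF3b and was higher in Bud31-vKO library 1, at 620 against 582 RPKM. Sf3b1, the largest subunit of SF3b, measured 996, 1055 and 964 CPM in wild type against 1092, 1012 and 1445 CPM in Bud31-vKO, a log2 fold change of 0.24 (standard error 0.26). Sf3b4 measured 346, 359 and 336 CPM in wild type against 265, 352 and 393 CPM in Bud31-vKO. Sf3b2 had a log2 fold change of -0.56 (standard error 0.39) and Sf3b6, which touches the branch point, one of 0.60 (standard error 0.41). The 7 SF3b genes summed to 562 ± 46.5 RPKM in wild type and 603 ± 36.1 RPKM in Bud31-vKO (SD, n = 3 each), with 5 of 7 above 0 and a median log2 fold change of 0.24, or 0.07 without wild type library 3. The 5 genes of SF3a and the U2 core had a median of 0.24, which was 0.06 without Bud31-vKO library 1, 0.000976 without wild type library 3, and -0.0207 with wild type library 3 and Bud31-vKO library 2 both left out. Among them were Sf3a3 at -0.03, Snrpa1 at 0.26 and Snrpb2 at 0.24. Of the U2AF pair, which reads the polypyrimidine tract and the AG at the 3′ splice site, U2af1 had 0.21 and U2af2 -0.28. U2af1 has 2 annotated pseudogenes of at least 90% identity, of which 1 is in the table with 2589 reads beside 10362 at the gene, so its level is uncertain.

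The Sm ring genes tested all had a higher mean in Bud31-vKO, but none passed the test. Their 6 log2 fold changes had a median of 0.49, which became 0.18 when Bud31-vKO library 1 was left out, 0.24 for wild type library 3, 0.78 for Bud31-vKO library 2 and 0.80 for wild type library 1, and 5 of 6 were above 0 without wild type library 3 and Bud31-vKO library 2 together. Snrpd3 measured 266, 184 and 146 CPM in wild type against 319, 224 and 299 CPM in Bud31-vKO, a log2 fold change of 0.50 (standard error 0.33). Snrpg measured 76.0, 47.0 and 22.3 CPM in wild type against 85.8, 40.5 and 82.2 CPM in Bud31-vKO, and Snrpb 759, 816 and 590 CPM against 711, 758 and 773 CPM. Wild type library 3 was the lowest of its group for 6 of 6 Sm genes and Bud31-vKO library 2 the lowest of its group for 5 of 6. Over all genes tested these shares were 49.2% and 53.8%. These are the 2 libraries with the fewest genes detected, and the part of that difference in the Sm values was not tested. Of the 3 U1 genes 2 were also lowest in wild type library 3 within their group, with Snrpc at 396, 298 and 131 CPM in wild type against 513, 198 and 441 CPM in Bud31-vKO, and Snrpa at 154, 168 and 21.9 CPM against 109, 75.1 and 105 CPM. The other one, Snrnp70, measured 85.6, 55.4 and 146 CPM against 102, 60.8 and 121 CPM and was highest in wild type library 3.

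Snrpf, the seventh Sm gene, was nearly without reads, with 5 in wild type library 1, 2 in Bud31-vKO library 3 and 0 in the other 4, where 3 reads equal 0.166 to 0.222 CPM. It was the only member that failed the filter. Of its 861 exonic bases 567 are shared with Ccdc38 on the opposite strand, and Ccdc38 itself had at most 18 reads in a library. It has 4 annotated pseudogenes, and the 3 of them in the count table held 27 reads in all, against 7 at the gene. Snrpg has 4 such copies, of which 2 are in the table with 1029 reads beside 5130 at the gene, and Snrpc has 8, all in the table, with 1848 reads beside 28847, so levels in the Sm and U1 genes depend on how reads that match several places were assigned, which is not stated.

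**Figure D5:**
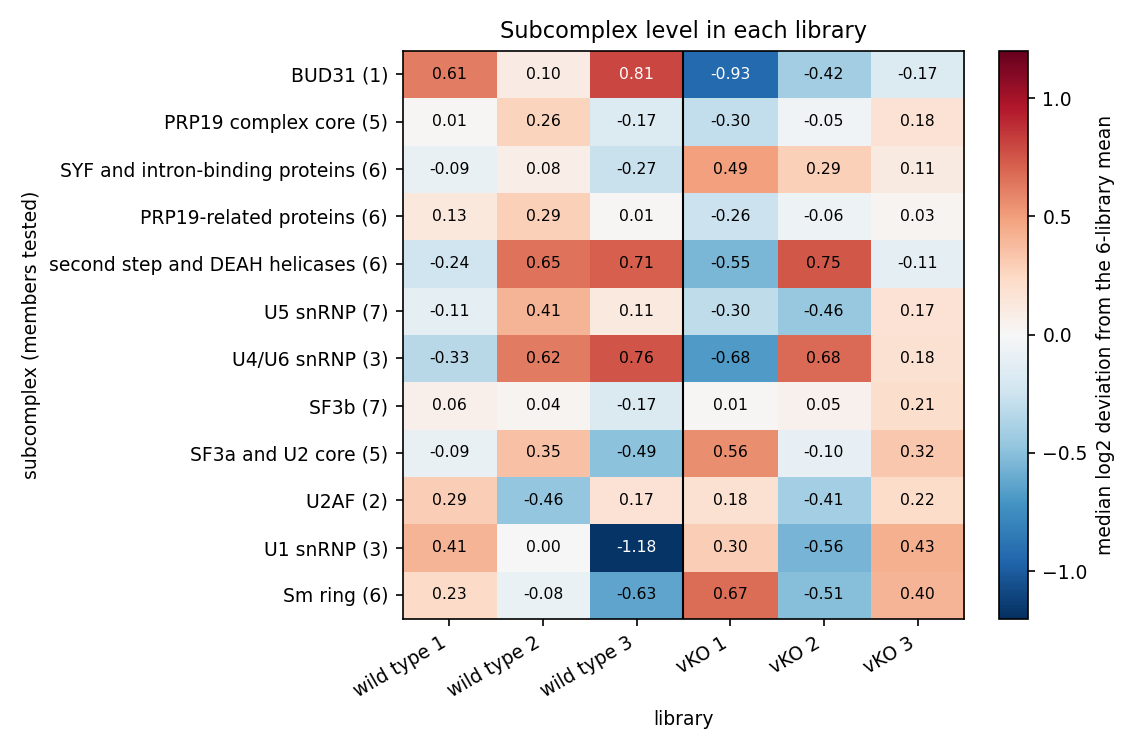
Median over the tested members of each subcomplex of the log2 level in a library minus its mean over the 6 libraries (columns are libraries, rows subcomplexes, colour and printed number the deviation). The Sm ring and U1 rows are lowest in wild type 3 and vKO 2. The row of second step factors and DEAH helicases and the U4/U6 row are low in wild type 1 and vKO 1. The BUD31 row is lower in each vKO library. The SYF and intron-binding row is higher in each, at 0.11 to 0.49 against -0.27 to 0.08 in wild type.

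The library pattern was not one of overall level alone. Wild type library 3 was the lowest over all members, at 2065 summed RPKM against 2371 to 2620 RPKM in the other libraries. The members took 0.83% to 0.95% of all reads in each of the 6 libraries. In wild type library 3 the median deviation from the 6-library mean, on the log2 scale, was -1.18 over the 3 U1 genes and 0.76 over the 3 U4/U6 genes. In each of these lists 1 gene went the other way there, Snrnp70 being the highest of its group and Prpf31, at 8.21 CPM against 50.4 and 52.2 CPM in the other wild type libraries, the lowest. In Bud31-vKO library 1 the median deviation was -0.68 over the U4/U6 genes and 0.67 over the Sm ring. Medians of the subcomplexes thus differed between libraries of 1 genotype.

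None of the other genes of the pathway passed the test. Of 73 further genes, all tested, 0 were called in either direction, 32 lay below 0 and 41 above, and the median log2 fold change was 0.05. The groups did not overlap for 1 of them, beside 11.2% of all genes tested: Zfp830, at 33.0 ± 6.56 CPM in wild type against 17.4 ± 3.83 CPM in Bud31-vKO (SD, n = 3 each). The median was 0.32 over the 7 genes of the LSM ring that binds U6, 0.32 over 14 further tri-snRNP and B complex genes, -0.07 over 16 accessory genes of U1 and the early complex, 0.09 over 15 genes of the RES and activated complexes, and -0.02 over 19 genes of snRNP assembly. The gene of smallest p in each was Lsm2 with -0.42, Usp39 (unadjusted p = 0.296 by edgeR), Luc7l2 with 0.74, Zfp830 with -0.92 and Tgs1, which forms the trimethyl cap of snRNAs, with 0.77, and in the pair of disassembly genes Gcfc2 with 1.12. None had an unadjusted p under 0.05 by edgeR.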

How the data were processed

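RNA was measured by Smart-Seq2 in 3 wild type and 3 Bud31-vKO libraries. The authors deposited unscaled read counts, 1 whole number per gene and library. The submitters' processing notes name mm10 and bcl2fastq; aligner, counter, annotation release and use of strand are not given in the sources read here. Symbols, positions and exon lengths came from GENCODE M21 (GRCm38, also called mm10), which matched 99.6% of identifiers. Counts were filtered with filterByExpr (minimum count 10, minimum total 15), scaled by TMM and compared by the quasi-likelihood test of edgeR 4.0.16, with Benjamini-Hochberg adjustment over all 15240 genes at 0.05. CPM use the TMM factors, and RPKM divide CPM by the union of exons. DESeq2 1.42.0 and limma-voom 3.58.1 were alternatives (R 4.3.3). Steps were tested on simulated data. Totals of 13240704 to 18744466 reads give a floor of 3 reads at 0.166 to 0.222 CPM, for counting error only. Pseudogenes were matched with megablast (identity of at least 90% over 80% of their length). Members and lists were chosen with earlier results of these data known. Genes were named by rule: Bud31, in each subcomplex the member of highest RPKM and the 2 of smallest p, members without overlap, and the smallest p of each pathway list. Other genes in the text were added after their values were seen. Scaling by RLE, by upper quartile or by library size alone was also tried, as were other filters, a block for the library number, each library left out, transcript length, and, chosen after seeing the data, 2 libraries left out together and robust dispersion.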

Additional observations from a re-analysis of the deposited data

How the results depend on the processing

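No alternative called a member, and the 0 calls over all genes became 2 lower and 5 higher without a filter on low counts and 30 lower and 18 higher with DESeq2. Bud31 stayed below 0 in each setting. The library numbers were tried as a replicate block, although same-numbered libraries did not deviate together in all 3 pairs (r = 0.19, 0.04 and -0.08): it called 0 genes, gave Bud31 a log2 fold change of -1.01, turned Snrpa to 0.12, and moved the U5 median from -0.02 to -0.60 and Prpf3 from -0.27 to -0.84. RLE scaling turned Sf3b4 to 0.000885 and Sf3a3 to 0.0232, DESeq2 turned them to 0.000875 and 0.0232, and limma-voom turned Snrpa to 0.23. Without wild type library 3 and Bud31-vKO library 2 together, Prpf6 was -0.22, Snrpa1 -0.0207, U2af2 0.20 and Snrpb -0.0744, and 12 members were lower and 16 higher without overlap, beside 19.8% and 19.6% of all genes. With 1 library left out, members without overlap numbered 3 to 10 lower and 3 to 14 higher, beside 9.70% to 13.0% and 6.64% to 14.9% of all genes, and the median of the members lay between -0.005 and 0.14. Over these 6 settings the log2 fold change took both signs for 28 of the 57 members tested. Among the genes named by rule it ranged from -0.38 to 0.22 for Sf3a3, -0.72 to 0.12 for Snrpa, -1.04 to 0.28 for Prpf3, -0.61 to 0.23 for U2af2, -0.0537 to 0.14 for Snrpb, -0.17 to 0.13 for Sf3b4, -0.25 to 0.64 for Snrpb2, -0.12 to 0.54 for U2af1 and -0.14 to 1.37 for Prpf6. With 2 libraries in a group fewer values can overlap, and the other causes were not tested. With the longest transcript as length the members' median level was 33.2 RPKM. Genes counted at few reads, such as Prpf19, Txnl4a and Snrpf, limit what depth can show.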
